A study of Mus musculus with 6 samples.

Results

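Kinetochore and centromere components are described here as a set of 39 genes, chosen by symbol as subunits of the structure that joins chromosomes to the spindle or as proteins that load or protect the centromere. All 39 were found, once each, among the 22027 protein-coding genes of the authors' deposited table, and the rule used the symbols alone. The symbols were chosen with earlier results of these data known. RNA was sequenced from wild-type RAW 264.7 cells, a transformed mouse macrophage line, 48 h after lipofection of 10 pmol of siRNA per well. By their titles, 3 libraries (siCTL) received a non-targeting siRNA and 3 libraries (siTET3) a single siRNA against Tet3, which encodes an enzyme that oxidises methylated cytosine, and the design addressed the effect of TET3 expression on the macrophage transcriptome. The treatment field reads siTET3 for every one of the 6 samples, which leaves the titles as the basis of the grouping. No label says whether the 3 replicates were separate cultures. The p-values below thus speak to library-to-library spread alone, and that spread may be of technical origin.

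The kinetochore is assembled on centromeric chromatin that carries the histone H3 variant CENP-A. An inner layer, the constitutive centromere-associated network, stays on the centromere through the cell cycle and recruits an outer layer made of the Knl1, Mis12 and Ndc80 complexes, of which the Ndc80 complex binds microtubules. In mitosis the spindle checkpoint, the chromosomal passenger complex, the Ska complex and the shugoshins act there to delay anaphase, correct attachments and protect cohesion. Transcripts of many of these genes are known to peak in G2 and mitosis in dividing cells, and RAW 264.7 cells divide in culture.

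The libraries held from 29587171 to 61709131 reads on protein-coding genes, and values are read counts divided by the authors' size factors, called normalised reads. The target did not separate the groups. Tet3 (ENSMUSG00000034832.15, chr6:83362373-83459084, minus strand, GRCm38) had a siCTL mean of 2036 ± 130.3 and a siTET3 mean of 1957 ± 21.2 normalised reads (SD, n = 3 each). Its log2 change was -0.06 (limma adjusted p = 0.699, exact two-sided permutation p = 0.4). It turned to 0.029 with scaling to the library total and to 0.041 with the GC trend removed (limma adjusted p = 0.894 and 0.843). Removing the GC trend means that the smoothed relation of log2 values to GC content was subtracted within each library. Without siCTL replicate 2 the log2 change of Tet3 was -0.10 (limma adjusted p = 0.397), and -0.05 with the GC trend also removed. Neither Tet3 nor the treatment field shows which libraries were treated, so the groups rest on the titles and each direction below is that of the labels. All 8 macrophage markers examined were detected, with summed levels from 480114 to 566738 normalised reads in siCTL and from 479408 to 511227 in the libraries labelled siTET3, and all 4 epithelial markers were at 0. Of the 4 T cell markers 2 were at 0, and their sum was 204 to 299 in siCTL and 201 to 257 in the libraries labelled siTET3. B cell markers summed to at most 9.17, and fibroblast markers to 8.10 to 395 in siCTL and 7.13 to 8.99 in siTET3. The fibroblast sum of 395 was that of siCTL replicate 2. One library stood apart from the rest. SiCTL replicate 2 was the highest or the lowest of the 6 libraries for 78.3% of the 11591 genes tested, against 15.8% to 34.6% for the other libraries, and its deviation from them correlated with the GC content of the genes (Pearson r = 0.39 across 11580 genes, a description of genes that share a library). The other libraries carried such a relation too. For siCTL replicates 1 and 3 r was -0.11 and 0.15, and for siTET3 replicates 1 to 3 it was -0.28, -0.30 and -0.35. The sign was opposite for the siTET3 libraries and for siCTL replicate 1. Each of these libraries was set against the mean of the others, siCTL replicate 2 among them.

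Transcripts of the kinetochore set were mostly higher in the libraries labelled siTET3, by modest amounts. By limma some of them passed the test, and only when siCTL replicate 2 was left out. With all 6 libraries, 33 of the 39 genes had a positive log2 change of siTET3 over siCTL and 6 a negative one, with a median of 0.32, while 49.3% of all genes tested were positive and their median was -0.0049. Limma called none of the 39 at an adjusted p under 0.05, beside 0.293% of all genes called higher and 0.0604% called lower, and 17 of the 39 had an unadjusted p under 0.05, all of them positive, beside 6.25% of all genes in that direction and 6.95% in the other. EdgeR on the recovered reads called none of the 39 either, with 15 at an unadjusted p under 0.05, beside 1547 of the 11591 genes tested. The lowest adjusted p of the set was 0.0738, that of Sgo2a. Values of the siTET3 libraries all lay above those of the siCTL libraries for 22 of the 39 genes and all below for none, beside 16.1% and 15.5% of all genes tested. In such bulk RNA, more cells in mitosis and more of a transcript per cell cannot be told apart.

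Without siCTL replicate 2, all 39 genes had a positive log2 change, from 0.02 to 0.84 with a median of 0.26, beside 51.7% of all genes. Limma then called 10 of the 39 higher and none lower, beside 2.65% of all genes called higher and 2.23% called lower. The 10 were Cenpa, Cenpc1, Spc25, Ndc80, Knl1, Cenpf, Cenpe, Birc5, Cdca8 and Sgo2a. No library other than siCTL replicate 2 gave a call when left out in turn. The count of 10 was 6 (Cenpa, Spc25, Knl1, Cenpf, Cenpe and Sgo2a) when the genes tested were those that pass the filter over all 6 libraries, a choice made after the data were seen, beside 1.7% of all genes called higher and 1.06% lower. It was 7 with the GC trend of each library also removed, when Incenp joined and Cenpc1, Ndc80, Knl1 and Birc5 left, beside 2.34% of all genes higher and 1.66% lower. The authors' deposited table, a DESeq2 comparison of all 6 libraries, lists 5 of the 39 as higher at the same threshold, Cenpa, Cenpc1, Spc25, Cenpf and Sgo2a, and none as lower, beside 1.55% and 1.39% of all genes with an adjusted p. All 5 are among the 10, and DESeq2 on the recovered reads called the same 5, beside 1.91% of all genes higher and 1.93% lower.

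The 39 genes together took 0.141%, 0.162% and 0.145% of all normalised reads in the siCTL libraries, by replicate number, and 0.179%, 0.173% and 0.178% in those labelled siTET3. The groups did not overlap in these shares. In summed normalised reads they did, with 53684, 70078 and 56607 in the siCTL libraries and 67886, 65508 and 67001 in those labelled siTET3. The total over all genes was 43384105 normalised reads in siCTL replicate 2, against 37668286 to 39110818 in the other libraries. SiCTL replicate 2 was the highest siCTL library in the share and the highest of all 6 libraries in the sum. Yet it was the lowest of all 6 for 23 of the 39 genes. It was the highest of all 6 for 9 others, among them Incenp, which alone gave 16034 of its 70078 normalised reads on the set.

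**Figure D1:**
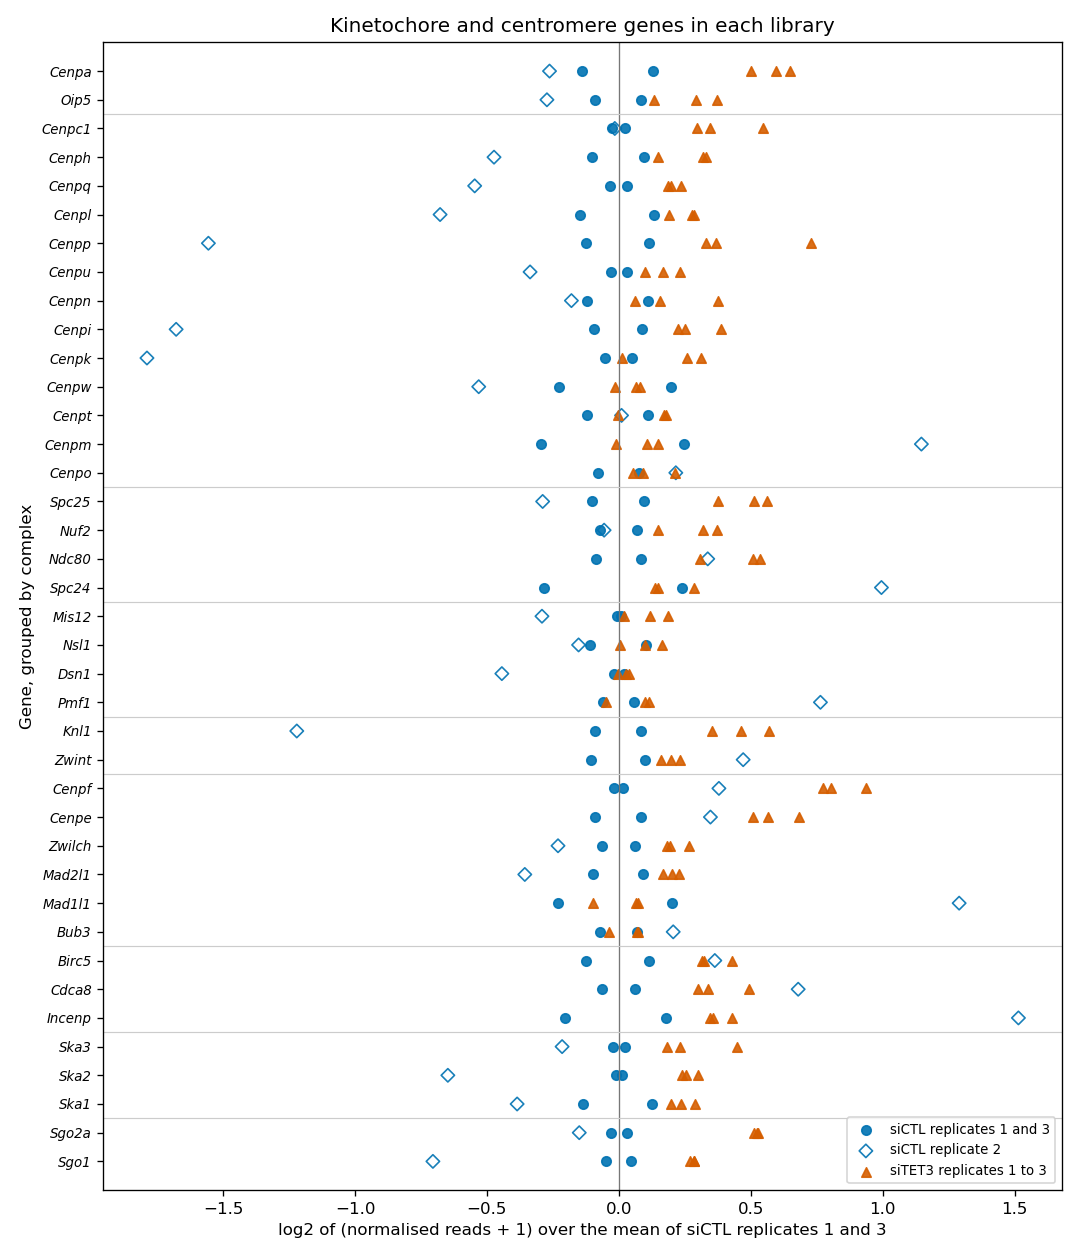
Each row is 1 of the 39 genes, grouped by complex, and the horizontal axis is the log2 of normalised reads plus 1 over the mean of siCTL replicates 1 and 3. Filled circles are siCTL replicates 1 and 3, open diamonds siCTL replicate 2 and triangles the 3 libraries labelled siTET3: the triangles lie to the right of both circles for 27 genes (as for 21.2% of all genes, with 20.6% to the left), and the diamonds lie far to either side, from Cenpk on the left to Incenp on the right.

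Promoters of the 6 genes of lowest p that have an entry in RefSeq's table (GRCm38.p6) are shown. All 6 had siTET3 values above every siCTL value, as did 16.1% of all genes tested. Promoters of mitotic genes are also known to carry the cell cycle homology region, or CHR, and CCAAT boxes. The CHR binds the repressor and activator complexes of the G2/M programme, and CCAAT boxes bind NF-Y. Each run holds 120 bases before and 30 bases from the annotated start, 5′ to 3′ on the gene's strand, with capitals marking TTTGAA or TTTAAA (forms of the CHR), CCAAT and TTCCCGCC or TTTGGCGC (forms of the E2F site) on either strand, so that ATTGG is CCAAT read on the other strand.
Cenpa (chr5:30666766-30666915, plus strand): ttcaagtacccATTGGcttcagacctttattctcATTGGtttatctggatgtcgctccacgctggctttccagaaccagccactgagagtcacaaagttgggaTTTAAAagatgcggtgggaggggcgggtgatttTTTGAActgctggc
Cenpf (chr1:189688057-189688206, minus strand): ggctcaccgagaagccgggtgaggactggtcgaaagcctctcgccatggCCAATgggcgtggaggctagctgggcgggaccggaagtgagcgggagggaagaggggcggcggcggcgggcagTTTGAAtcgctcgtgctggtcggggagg
Spc25 (chr2:69206184-69206333, minus strand): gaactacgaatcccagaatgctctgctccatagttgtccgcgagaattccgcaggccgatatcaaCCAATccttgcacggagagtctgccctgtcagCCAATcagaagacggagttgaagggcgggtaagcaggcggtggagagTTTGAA
Cenpc1 (chr5:86065554-86065703, minus strand): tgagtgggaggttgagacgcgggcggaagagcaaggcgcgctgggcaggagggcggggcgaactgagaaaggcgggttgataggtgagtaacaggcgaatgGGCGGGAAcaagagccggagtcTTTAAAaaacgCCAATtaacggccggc
Cenpe (chr3:135212443-135212592, plus strand): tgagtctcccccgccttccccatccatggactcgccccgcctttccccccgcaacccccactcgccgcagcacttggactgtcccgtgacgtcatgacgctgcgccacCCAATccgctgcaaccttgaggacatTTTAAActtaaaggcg
Sgo2a (chr1:57985220-57985369, plus strand): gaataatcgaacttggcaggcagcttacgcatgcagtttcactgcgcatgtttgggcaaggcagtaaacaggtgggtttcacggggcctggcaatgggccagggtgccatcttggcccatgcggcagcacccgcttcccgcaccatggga
Cenpa, Cenpf, Spc25, Cenpc1 and Cenpe each hold a form of the CHR at the start or just after it, together with at least 1 CCAAT box, and none of these motifs lies in the stretch of Sgo2a, whose first listed of 2 starts is shown. That start lies upstream of the GENCODE gene used for its counts, and the last 20 bases before the window's end are in no GENCODE transcript of the gene, unlike those of the other 5. Of the 39 genes, 34 had an entry. In the window from 250 bases before to 50 after the start, TTTGAA was found in 13 of the 34 (38.2%), beside 18.1% of 27025 promoters, and TTTAAA in 9 (26.5%), beside 13.2%. CCAAT was found in 23 (67.6%), beside 37.9%, and TTCCCGCC in 5 (14.7%), beside 2.24%, while TTTGGCGC was found only in that of Cenpl, beside 0.537%. None of these motifs contains another. The matches are a description of letters and not of binding.

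Both genes of the centromeric nucleosome were higher in every library labelled siTET3 than in any siCTL library, beside 16.1% of all genes. Cenpa (ENSMUSG00000029177.9, chr5:30666777-30674830, plus strand), which encodes the histone H3 variant that marks the centromere, had normalised reads of 1655, 1262 and 1373 in siCTL replicates 1 to 3 and 2371, 2289 and 2144 in siTET3 replicates 1 to 3. Its log2 change was 0.67 with a 95% interval of 0.38 to 0.97 (limma adjusted p = 0.137), and it rose 1.503-fold, with an interval of 1.31 to 1.73, without siCTL replicate 2 (limma adjusted p = 0.00666). Removal of the GC trend from all libraries gave a log2 change of Cenpa of 0.66. Its promoter run above has a CHR form on each side of the start. In the authors' deposited table the adjusted p of Cenpa is 0.000474. Oip5, which encodes a subunit of the Mis18 complex that prepares the centromere for new CENP-A, had 544, 424 and 482 in siCTL replicates 1 to 3 and 629, 563 and 665 in siTET3 replicates 1 to 3. The gap between the groups was narrow, and the log2 change of 0.36 missed the threshold with and without siCTL replicate 2 (limma adjusted p = 0.347 and 0.158). It was 0.20 with the GC trend removed, and 9.67% of its exon bases overlap those of Nusap1 on the other strand.

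Of the 13 genes of the inner kinetochore, 12 had a positive log2 change, beside 49.3% of all genes, and 7 had all siTET3 values above all siCTL values, beside 16.1% of all genes. Cenpc1 (ENSMUSG00000029253.12, chr5:86012024-86065583, minus strand), whose product links CENP-A nucleosomes to the outer kinetochore, had 1742, 1753 and 1803 in siCTL replicates 1 to 3 and 2254, 2178 and 2589.5 in siTET3 replicates 1 to 3. SiCTL replicate 2 lay between the other siCTL libraries for this gene, and the log2 change was 0.40 with all libraries and 0.40 without it. With the GC trend removed from all libraries it was 0.07, with an interval of -0.35 to 0.50, and 0.26 with that trend removed and siCTL replicate 2 left out. By limma, only the fit without siCTL replicate 2 and with no GC correction passed (limma adjusted p = 0.243 and 0.0297, and 0.135 with the GC trend also removed). That call was missed when the genes tested were those that pass the filter over all 6 libraries (limma adjusted p = 0.0638). The adjusted p of the authors' deposited table is 0.0144. Cenph, a subunit of the CENP-H/I/K/M group, had 554, 428 and 635 in siCTL replicates 1 to 3 and 742, 659.6 and 749 in siTET3 replicates 1 to 3, with every siTET3 value above every siCTL value and a log2 change of 0.43, short of the threshold (limma adjusted p = 0.368). It was 0.27 without siCTL replicate 2 and 0.24 with the GC trend removed.

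The other genes of this layer split by their level in siCTL replicate 2. Cenpk and Cenpi, of the same subunit group and singled out after their values were seen, had 551 and 843 normalised reads in siCTL replicate 1, 513 and 742 in replicate 3, but 153 and 247 in replicate 2. With all libraries their log2 changes were 0.79 and 0.85, and without siCTL replicate 2 they were 0.19 and 0.29, none past the threshold. The GC-corrected values of all 6 libraries gave 0.32 and 0.56. Cenpm, the fourth of that group, was the 1 gene of the layer with a negative log2 change (-0.28), which was 0.11 without siCTL replicate 2. Its values were 274, 747 and 399.9 in siCTL replicates 1 to 3 and 374, 363 and 335 in siTET3 replicates 1 to 3, with 1 siCTL library far above the rest. Cenpp, Cenpq and Cenpu, of the CENP-O/P/Q/U group, had log2 changes of 0.996, 0.39 and 0.28, all with siTET3 values above all siCTL values, whereas Cenpo of the same group overlapped at 0.05. Cenpp had 55.7 normalised reads in siCTL replicate 2 against 179 and 152 in siCTL replicates 1 and 3. Without that library the log2 changes of Cenpp, Cenpq, Cenpu and Cenpo were 0.48, 0.21, 0.17 and 0.12, and with the GC trend removed they were 0.70, 0.17, 0.10 and 0.08. Cenpl and Cenpn, which form a pair that reads CENP-A, had 0.48 and 0.26, which were 0.26 and 0.20 without siCTL replicate 2 and 0.16 and 0.19 with the GC trend removed. The histone-fold pair Cenpt and Cenpw had 0.12 and 0.23 and overlapped, and the value for Cenpw was 0.06 without siCTL replicate 2 and -0.30 with the GC trend removed from all libraries.

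The Ndc80 complex, the main microtubule binder of the outer kinetochore, had 3 of its 4 genes at an unadjusted p under 0.05. All 3 were positive, beside 6.25% of all genes in that direction and 6.95% in the other. Spc25 (ENSMUSG00000005233.16, chr2:69193895-69206194, minus strand) had 1208, 925 and 1051 in siCTL replicates 1 to 3 and 1667, 1465 and 1611 in siTET3 replicates 1 to 3. The groups were well apart, and it rose 1.400-fold (interval 1.22 to 1.61) without siCTL replicate 2, against a log2 change of 0.58, not called, with all libraries (limma adjusted p = 0.0157 and 0.186). For this gene the authors' deposited table gives 0.00626 as the adjusted p. Nuf2 had 2012, 1847 and 1828 in siCTL replicates 1 to 3 and 2394, 2128 and 2484 in siTET3 replicates 1 to 3, with a log2 change of 0.30 and no call in either fit (limma adjusted p = 0.332 and 0.0877). Ndc80, which contacts the microtubule, had 875, 1174 and 984 in siCTL replicates 1 to 3 and 1322, 1149 and 1347 in siTET3 replicates 1 to 3. SiCTL replicate 2 exceeded siTET3 replicate 2 here, and the log2 change with all libraries was 0.34, not called (limma adjusted p = 0.374). Ndc80 was called only in the fit without that siCTL library, at a log2 change of 0.45 (limma adjusted p = 0.0275). That call was missed with the GC trend also removed (limma adjusted p = 0.102). It was also missed when the genes tested were those that pass the filter over all 6 libraries (limma adjusted p = 0.0641). Spc24, the partner of Spc25, had 649, 1098 and 452 in siCTL replicates 1 to 3 and 672, 611 and 606 in siTET3 replicates 1 to 3, with overlap and a log2 change of -0.12 that was 0.21 without siCTL replicate 2. After removal of the GC trend from all libraries the log2 change was 0.34 for Spc25, 0.02 for Nuf2, 0.09 for Ndc80 and -0.04 for Spc24.

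Genes of the Mis12 complex, which bridges the inner and outer layers, had log2 changes from -0.20 to 0.20 and a median of 0.15. With all libraries and no GC correction this was the lowest median of the 3 outer complexes. With the GC trend removed from all libraries the Ndc80 complex was lowest, at 0.06, against 0.09 for the Mis12 and 0.11 for the Knl1 complex. None had an unadjusted p under 0.05, with or without siCTL replicate 2. Mis12 had 1793, 1457 and 1773 in siCTL replicates 1 to 3 and 1807, 1933 and 2029 in siTET3 replicates 1 to 3, with siTET3 replicate 1 barely above the highest siCTL library (limma adjusted p = 0.397). Its log2 change was 0.20 with all libraries, 0.11 without siCTL replicate 2 and 0.08 with the GC trend removed. Nsl1, Dsn1 and Pmf1 overlapped between groups, and without siCTL replicate 2 their log2 changes were 0.09, 0.02 and 0.06, with intervals of -0.12 to 0.30, -0.16 to 0.20 and -0.12 to 0.23. The difference between this complex and the Ndc80 complex was not tested.

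Knl1, the scaffold on which checkpoint kinases and phosphatases dock, had 1304, 527 and 1154 in siCTL replicates 1 to 3 and 1695, 1571 and 1823 in siTET3 replicates 1 to 3. Replicate 2 of siCTL was far below every other library, and the log2 change of 0.87 had a wide interval of 0.07 to 1.67 (limma adjusted p = 0.371). Without that library Knl1 rose 1.380-fold (interval 1.20 to 1.58, limma adjusted p = 0.0184). That call held narrowly when the genes tested were those that pass the filter over all 6 libraries (limma adjusted p = 0.04999). It was missed with the GC trend also removed (limma adjusted p = 0.0572). With that trend removed from all 6 libraries the log2 change was 0.42, without a call. Its partner Zwint overlapped with all libraries, at a log2 change of 0.04, and had 0.20 without siCTL replicate 2, short of the threshold (limma adjusted p = 0.151), and -0.20 with the GC trend removed.

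The largest change of the set without siCTL replicate 2 was that of Cenpf, in the fibrous corona. Cenpf (ENSMUSG00000026605.14, chr1:189640606-189688086, minus strand), a large coiled-coil protein of the outer kinetochore that accumulates in G2, had 1132, 1489.5 and 1159 in siCTL replicates 1 to 3 and 1997, 1959.9 and 2192 in siTET3 replicates 1 to 3. All siTET3 values exceeded all siCTL values, siCTL replicate 2 was the highest of the siCTL group, and the gene rose 1.787-fold (interval 1.59 to 2.01) when that library was left out (limma adjusted p = 0.000239), against a log2 change of 0.71 with all libraries (limma adjusted p = 0.14). Its adjusted p in the authors' deposited table is 0.000657. Cenpe, a kinesin that carries chromosomes to the spindle equator, had 1774, 2401 and 2002 in siCTL replicates 1 to 3 and 2794, 2689 and 3033 in siTET3 replicates 1 to 3. The groups did not overlap either, and Cenpe rose 1.504-fold (interval 1.33 to 1.71) without siCTL replicate 2, a call kept with the GC trend also removed (limma adjusted p = 0.00359 and 0.0155), while its adjusted p with all libraries was 0.298 by limma. With the GC trend removed from all libraries the log2 change was 0.50 (interval 0.01 to 0.99) for Cenpf and 0.25 (interval -0.26 to 0.75) for Cenpe, against 0.47 before removal for the latter.

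The other genes of the corona and checkpoint had log2 changes from -0.41 to 0.32. Zwilch, a subunit of the complex that brings dynein to the kinetochore, had 1239.6, 1013 and 1139 in siCTL replicates 1 to 3 and 1429, 1351 and 1361 in siTET3 replicates 1 to 3, with no overlap and a log2 change of 0.29 (limma adjusted p = 0.343), which was 0.08 with the GC trend removed. Mad2l1, the checkpoint protein that inhibits the anaphase-promoting complex, had 0.32 with no overlap, 0.20 without siCTL replicate 2 and -0.03 with the GC trend removed. Mad1l1, which recruits it, and Bub3, which brings the Bub kinases to Knl1, overlapped. Mad1l1 had 741, 2128 and 999 in siCTL replicates 1 to 3 and 812, 914 and 910.3 in siTET3 replicates 1 to 3, a log2 change of -0.41 that was 0.03 without the 1 high siCTL library. For Bub3 the log2 change was -0.03 with all libraries and 0.04, with an interval of -0.12 to 0.20, without siCTL replicate 2.

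All 3 genes of the chromosomal passenger complex overlapped with all libraries and separated without siCTL replicate 2. Without that library, 21.2% of all genes had all siTET3 values higher and 20.6% all lower. Birc5, which encodes survivin, had 1767, 2476 and 2082 in siCTL replicates 1 to 3 and 2594, 2404 and 2395 in siTET3 replicates 1 to 3. Cdca8, which encodes borealin, had 2479, 4149 and 2702 in siCTL replicates 1 to 3 and 3648, 3271 and 3192 in siTET3 replicates 1 to 3. For Incenp, the scaffold of the complex, the values were 4868, 16034 and 6361 in siCTL replicates 1 to 3 and 7551, 7125 and 7180.4 in siTET3 replicates 1 to 3. In each case siCTL replicate 2 was above the other siCTL libraries, by far the most for Incenp. With all libraries the log2 changes of Birc5 and Cdca8 were 0.24 and 0.15, or 0.18 and 0.11 with the GC trend removed, without a call. Without siCTL replicate 2 Birc5 rose 1.283-fold (interval 1.13 to 1.46) and Cdca8 1.300-fold (interval 1.15 to 1.47), with limma adjusted p-values of 0.043 and 0.0276, or 0.0663 and 0.0374 with the GC trend also removed. Both were missed when the genes tested were those that pass the filter over all 6 libraries (limma adjusted p = 0.0772 and 0.0584). The log2 change of Incenp was -0.12 with all libraries, 0.39 without siCTL replicate 2 and 0.46 with the GC trend also removed, and only the last passed (limma adjusted p = 0.864, 0.0583 and 0.0216).

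The 3 Ska genes, whose products keep the Ndc80 complex on shortening microtubules, each had siTET3 values above every siCTL value but were not called. Of all genes tested, 16.1% had all siTET3 values above all siCTL values. Ska1 had 381, 267 and 318 in siCTL replicates 1 to 3 and 427, 411 and 401 in siTET3 replicates 1 to 3. Ska2 had 731, 462 and 719 in siCTL replicates 1 to 3 and 894, 864 and 857 in siTET3 replicates 1 to 3, and its lowest library was again siCTL replicate 2. Ska3 had 635, 538 and 615 in siCTL replicates 1 to 3 and 709, 733 and 853 in siTET3 replicates 1 to 3. Their log2 changes were close, at 0.37, 0.48 and 0.36, and 0.25, 0.26 and 0.29 without siCTL replicate 2, with limma adjusted p-values from 0.0788 to 0.208 in the latter fit. Removing the GC trend from all libraries gave 0.29, 0.16 and 0.21.

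The shugoshins, which shield cohesin at the centromere, held the gene of lowest p in the set. Sgo2a (ENSMUSG00000026039.9, chr1:57995971-58025899, plus strand) had 894, 789 and 858 in siCTL replicates 1 to 3 and 1259, 1251 and 1263 in siTET3 replicates 1 to 3. The 3 siTET3 libraries agreed within 0.502% (coefficient of variation), and the log2 change was 0.57, with an interval of 0.36 to 0.78 (limma adjusted p = 0.0738). After GC correction of all libraries it was 0.24, with an interval of -0.08 to 0.56 that holds 0 (limma adjusted p = 0.498). Sgo2a rose 1.435-fold (interval 1.28 to 1.60) without siCTL replicate 2, also with the GC trend removed (limma adjusted p = 0.00356 and 0.0166), and the authors' deposited table lists 1.8e-06. Of its exon bases 35.0% overlap Kctd18 on the other strand. Kctd18 itself had 590.3, 583 and 569 in siCTL replicates 1 to 3 and 547, 561 and 582 in siTET3 replicates 1 to 3, a log2 change of -0.04 without a call. Sgo1 had 675, 400.2 and 631 in siCTL replicates 1 to 3 and 796, 795 and 787 in siTET3 replicates 1 to 3. It was above every siCTL library in all 3 libraries labelled siTET3, without a call in either fit (log2 change 0.51 and 0.28, limma adjusted p = 0.374 and 0.0748), and its log2 change was 0.23 with the GC trend removed.

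**Figure D2:**
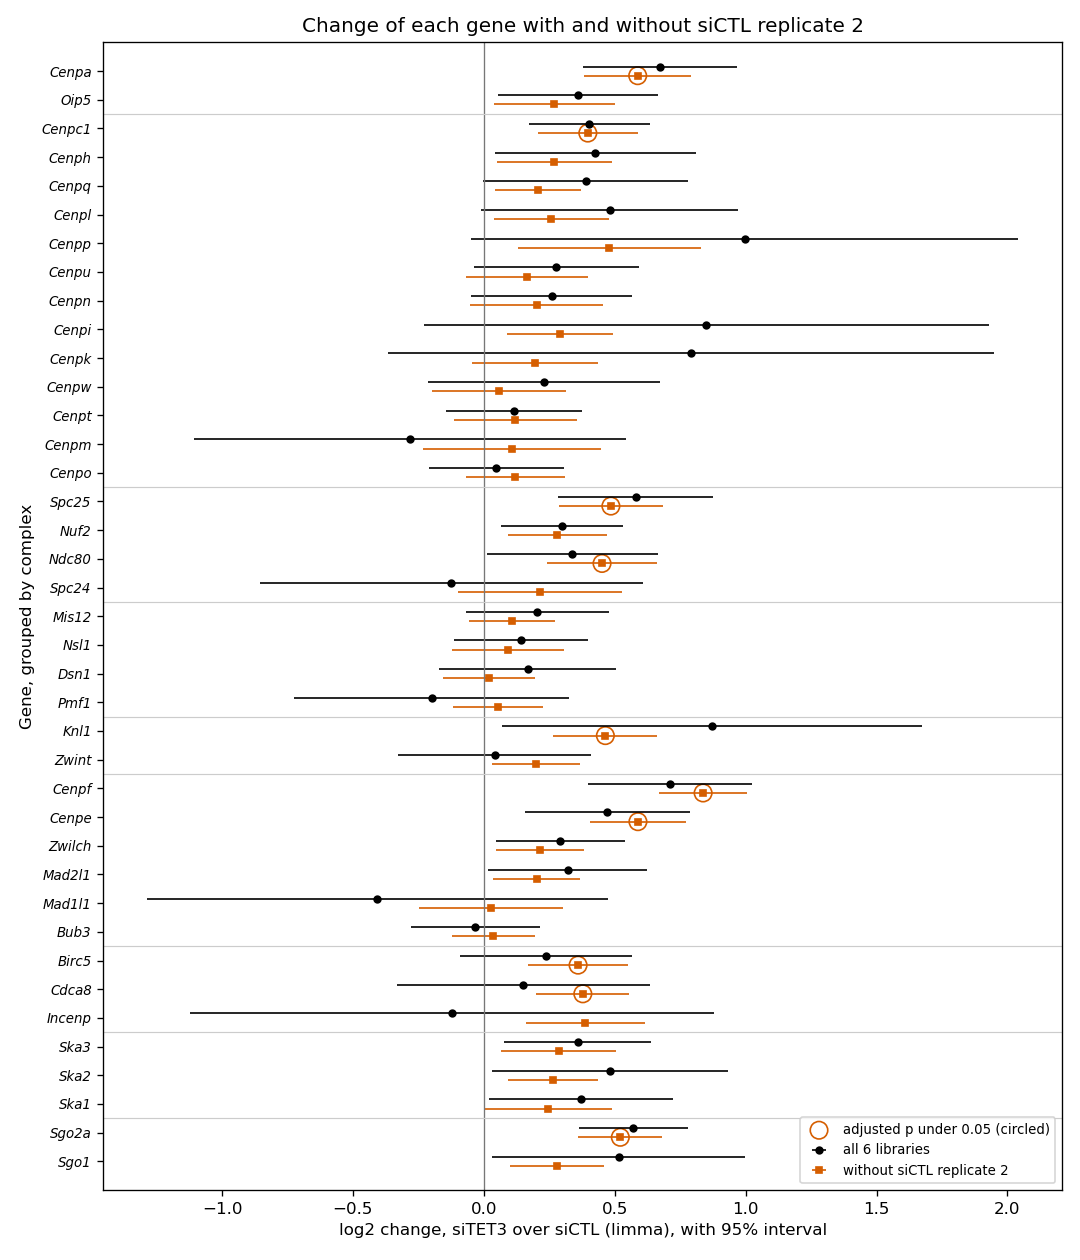
Each row is 1 gene, grouped by complex, with the limma log2 change of siTET3 over siCTL and its 95% interval for all 6 libraries (circles) and without siCTL replicate 2 (squares); rings mark an adjusted p under 0.05. All 39 squares lie right of 0 and 10 carry a ring, while 6 circles lie left of 0 and none carries a ring.

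The siCTL group was the more spread. The SD of siCTL exceeded that of siTET3 for 35 of the 39 genes, with a median coefficient of variation of 16.8% against 5.82%. GC content of the longest transcript ran from 35.8% (Cenpw) to 56.8% (Mad1l1), with a median of 43.9%, below the 49.7% of all genes tested. Across the 39 genes it correlated with the log2 of siCTL replicate 2 over replicates 1 and 3 (Pearson r = 0.74, Spearman rho = 0.66, n = 39 genes that share the same libraries). The extremes of that log2 were -1.79 for Cenpk, with a GC content of 37.1%, and 1.53 for Incenp, with 54.7%. Not every gene followed this order. Ndc80, Zwint, Cenpe and Cenpf lay below the median GC content, yet were higher in siCTL replicate 2 than in replicates 1 and 3. Each library was also set against the mean of the others. Within the set, r with GC content was then -0.70, -0.65 and -0.71 for siTET3 replicates 1 to 3. For siCTL replicates 1 and 3 it was -0.54 and -0.07. In all of these the mean of the others includes siCTL replicate 2. The log2 change between groups was also negatively related to GC content, with r = -0.75 with all libraries and r = -0.29 without siCTL replicate 2. With the GC trend removed from each of the 6 libraries, the median log2 change of the set was 0.16, with 31 genes positive, beside 50.2% of all genes. All siTET3 values were then above all siCTL values for 12 of the 39 genes and below for 1, beside 13.5% and 12.1% of all genes, where 22 and 0 had been so before. Limma called none of the 39, beside 0.406% of all genes called higher and 0.0518% lower, and 5 had an unadjusted p under 0.05, all positive, beside 5.35% of all genes in that direction and 5.21% in the other. Before the removal 17 had been under that p. Without siCTL replicate 2 and with that trend removed the median was 0.16 too, with 37 positive, beside 51.0% of all genes. How far base content accounts for the differences was not tested beyond these values.

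**Figure D3:**
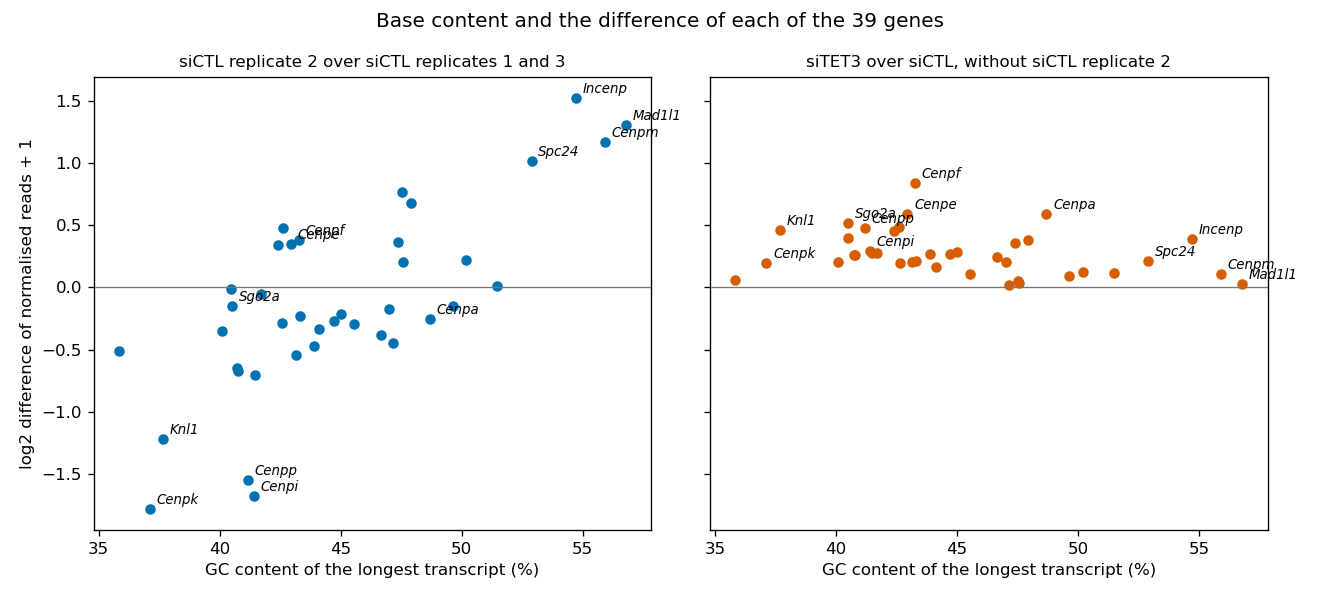
Points are the 39 genes by GC content of their longest transcript (horizontal axis, %). The vertical axis is the log2 of siCTL replicate 2 over the other siCTL libraries at left, which climbs from Cenpk to Incenp, and the limma log2 change of siTET3 over siCTL without that library at right, where all 39 points lie above 0.

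Levels per kilobase of merged exons spanned a wide range. In the libraries labelled siTET3, Incenp had the highest mean, at 1683 normalised reads per kilobase, followed by Zwint at 1180.5 and Bub3 at 938, and Cenpu and Cenpp had the lowest, at 81.3 and 90.7. Genes of 1 complex differed in level. Within the Ndc80 complex the siTET3 means were 196 for Ndc80, 245 for Spc24, 368 for Nuf2 and 496 for Spc25, and within the Mis12 complex they ran from 138 for Nsl1 to 685 for Pmf1. Merged exons include those of rare transcripts, which lowers the level per kilobase of genes with long alternative exons.

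**Figure D4:**
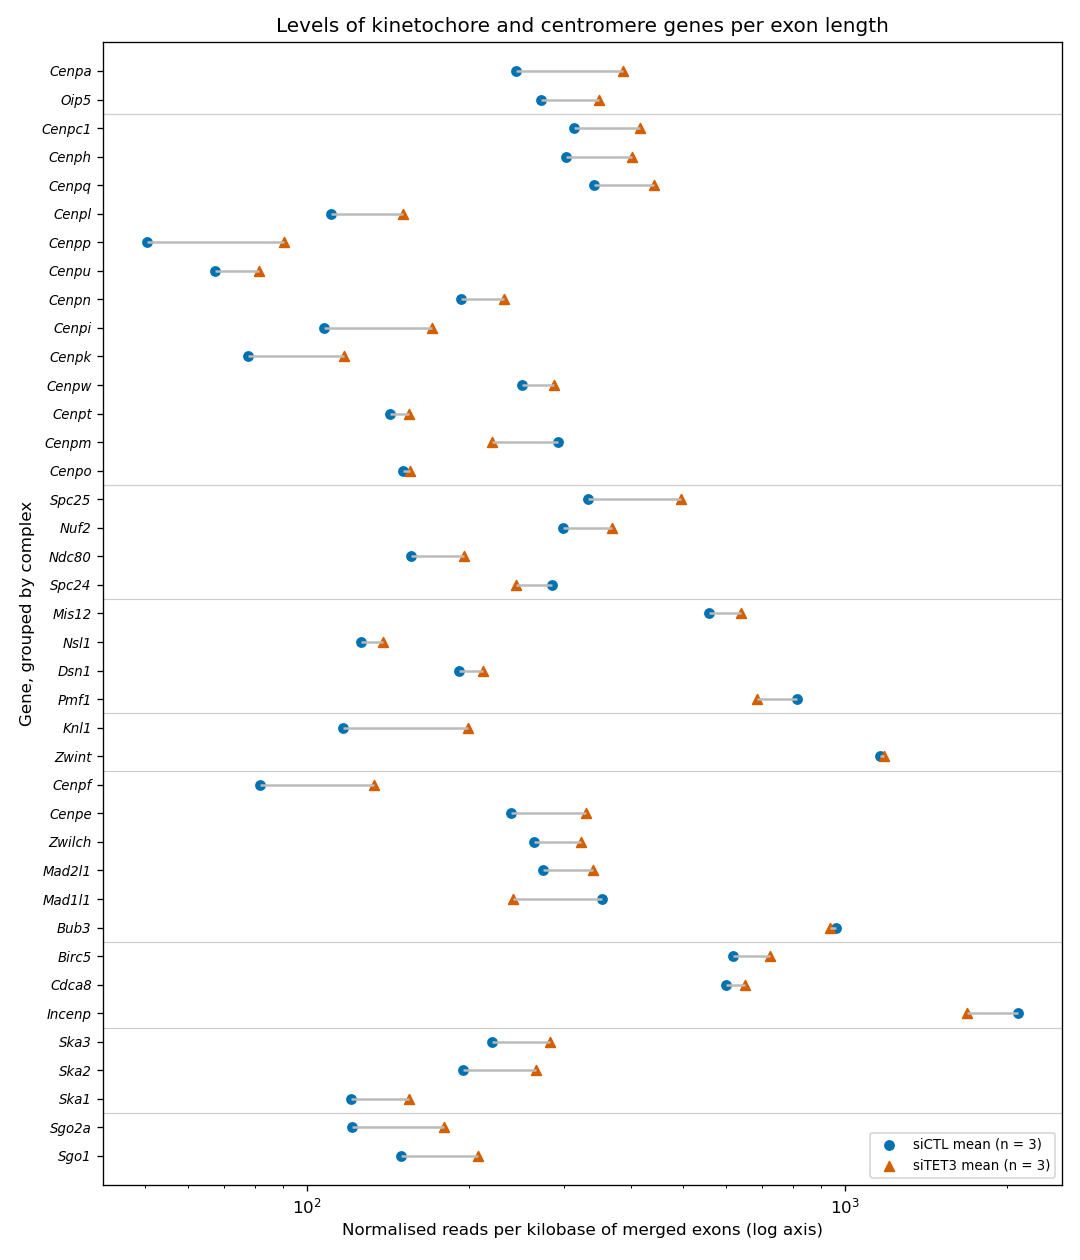
The mean of 3 libraries per group for each gene, in normalised reads per kilobase of merged exons on a log axis, with circles for siCTL and triangles for siTET3. Incenp, Zwint and Bub3 are the highest and Cenpp and Cenpu the lowest, and the siCTL means of Incenp, Pmf1, Mad1l1, Cenpm, Spc24 and Bub3 lie right of the siTET3 means.

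A second list of 29 genes of the same structures, none of them in the set, was examined in the same fits, and 28 were found. This list too was chosen with earlier results of these data known. With all libraries 20 of the 28 had a positive log2 change, beside 49.3% of all genes, with a median of 0.22. Limma called none in either direction, beside 0.293% and 0.0604% of all genes, and 10 had an unadjusted p under 0.05, beside 6.25% of all genes higher and 6.95% lower. Without siCTL replicate 2, 25 were positive, beside 51.7% of all genes, with a median of 0.23, and 9 were called higher and none lower, beside 2.65% and 2.23% of all genes. The 4 of lowest p were Plk1, the mitotic kinase, Cdc20, the activator of the anaphase-promoting complex, Spag5, a spindle protein also called astrin, and Aurkb, the kinase of the passenger complex. Plk1 had a siCTL mean of 1306 ± 85.2 and a siTET3 mean of 2062 ± 95.1 normalised reads (SD, n = 3 each) and Cdc20 a siCTL mean of 1285 ± 34.1 and a siTET3 mean of 1695 ± 75.7 normalised reads (SD, n = 3 each). Their log2 changes without siCTL replicate 2 were 0.71 and 0.38, that of Spag5 0.44 and that of Aurkb 0.29, and the first 3 passed in that fit while Aurkb did not (limma adjusted p = 0.000648, 0.0184, 0.00592 and 0.0583). The authors' deposited table lists 3 of the 28 as higher, Plk1, Cdc20 and Spag5, and 0 as lower, beside 1.55% and 1.39% of all genes with an adjusted p. With the GC trend removed from all libraries the median of the 28 was 0.18, with 22 positive, beside 50.2% of all genes. Limma then called 1 higher and 0 lower, beside 0.406% and 0.0518% of all genes. An unadjusted p under 0.05 was found for 11, beside 5.35% of all genes higher and 5.21% lower.

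Values of other G2/M genes and of S phase genes stood beside these. Of 20 other G2/M genes, such as cyclin genes and Top2a, all 20 had a positive log2 change in both fits, with a median of 0.55 with all libraries and 0.53 without siCTL replicate 2, and limma called 1 and 20 of them higher, beside 0.293% and 2.65% of all genes. Of 20 S phase genes, such as Pcna and the Mcm genes, 9 were positive with all libraries and 11 without siCTL replicate 2, with medians of -0.02 and 0.02 and no call in either fit, although 2 had an unadjusted p under 0.05 in each. Such a p was found for 6.25% of all genes higher and 6.95% lower with all libraries, and for 12.1% and 11.4% without siCTL replicate 2. The kinetochore median of 0.32 and 0.26 lay between these lists. With the GC trend removed from all libraries the medians were 0.16 for the kinetochore set, 0.49 for the G2/M list and 0.02 for the S phase list. An unadjusted p under 0.05 was then found for 5 of the 39, 16 of the G2/M and 1 of the S phase genes, beside 5.35% of all genes higher and 5.21% lower. Limma called 3 of the G2/M genes higher, beside 0.406% of all genes. The differences between these lists were not tested. What part a shift in cell cycle phase has in the kinetochore values was not tested.

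Several members share exon bases with a gene on the opposite strand, and their counts are uncertain to that extent since no source says that strand was used in counting. The shares were 26.7% for Cenpu (with Primpol), 19.0% for Cenpo (with Adcy3), 12.3% for Cenpp (with Ippk) and 10.1% for Ska2, and 9.67% or less for the other members with an overlap apart from Sgo2a. Sgo2a also has a near paralogue, Sgo2b, with which reads may be shared.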

How the data were processed

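RNA-seq libraries of RAW 264.7 cells were made with a stranded mRNA kit, per the labels' protocols. The build was GRCm38 (mm10), per the submitters' processing notes. Which aligner and counter were run is not given in these sources. The authors deposited 1 signal value per gene and library, read here as gene counts divided by a size factor, since dividing by the smallest value above 0 gave whole numbers for 100% of them (tolerance 0.001 reads), taken as the reads. One read was worth 0.634 to 1.27 normalised reads. The deposited log2 fold changes (siCTL over siTET3, turned here) and p-values are the authors', from DESeq2 per the table's name.

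The main test was limma 3.58.1 (R 4.3.3) with a variance trend on log2(value + 1), group as the only term, on the 11591 genes with a mean of at least 10, with Benjamini-Hochberg adjustment over all of them and a threshold of 0.05. Fold changes are on that scale, which understates changes of low genes, and intervals cover 95%. Limma was chosen as the main test because the deposited values are scaled. Count tests were also possible on the recovered reads, and edgeR 4.0.16 and DESeq2 1.42.0 were run on them as alternatives. edgeR called none of the 39 genes and 40 genes in all, 33 higher and 7 lower. GC content is that of the longest GENCODE M21 transcript, and its trend was removed per library by lowess (span 0.3). Coordinates are 1-based, from GENCODE M21 on GRCm38, matched for 21886 of 22027 genes and all 39 members.

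The members and lists were chosen with earlier results of these data known. Values in every library are given for the 15 genes of lowest p, the lowest of each role and those called; other genes are given by ranges or named after their values were seen. No set test was run. Precision is limited by 3 libraries per group.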

Additional observations from a re-analysis of the deposited data

How the results depend on the processing

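The count of 0 members called higher held under both other pseudocounts, both other filters, both other scalings, the GC correction, edgeR and the replicate block. It was 10 without siCTL replicate 2 (0 to 10 over the 6 libraries left out in turn), 7 with the GC trend also removed, 6 with genes filtered over all 6 libraries and 5 with DESeq2 on the recovered reads. No member was called lower under any alternative. Of the other kinetochore genes, 9, 6, 6 and 4 were called higher in the same order, 0 to 9 over the libraries left out, and 1 with the GC trend removed and with scaling to the library total. The members' median log2 change was 0.16 with the GC trend removed, with or without the replicate block, and 0.16 without siCTL replicate 2 as well, and 0.26 to 0.36 over the libraries left out. Groups did not overlap for 13 members with the GC trend removed, 12 higher and 1 lower, beside 13.5% and 12.1% of all genes.

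The sign of 28 of the 39 members held under every alternative. With the GC trend removed, with or without the block, the log2 change reversed to -0.30 for Cenpw, -0.20 for Zwint, -0.027 for Mad2l1 and 0.0050 for Incenp, and that of Tet3 to 0.041 (0.029 with scaling to the library total, which turned Bub3 to 0.052). Over the libraries left out in turn it ran from -0.61 to 0.11 for Cenpm, -0.43 to 0.21 for Spc24, -0.36 to 0.055 for Pmf1, -0.73 to 0.028 for Mad1l1, -0.10 to 0.037 for Bub3 and -0.47 to 0.39 for Incenp, each positive without siCTL replicate 2. With the GC trend also removed these were 0.20, 0.26, 0.018, 0.13, 0.00015 and 0.46, and Cenpw and Dsn1 turned to -0.14 and -0.023. Without siCTL replicate 1, Cenpo and Zwint were negative, in ranges of -0.026 to 0.12 and -0.089 to 0.20, and without siTET3 replicate 3 Bub3 was at 0.0035. The causes were not tested.

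The titles give both groups the numbers 1 to 3, but libraries of the same number did not deviate together (correlations of 0.03, -0.06 and -0.10 across genes). No siCTL library correlated best with its own number. All such correlations between the groups were small, from -0.10 to 0.11, so they cannot settle whether the numbers pair the libraries. The replicate block called none of the members, and 1 gene higher and 0 lower in all, against 34 and 7. No member lies near the floor of 3 reads, since the lowest value in any library was 55.7 normalised reads.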
